A study of Mus musculus with 4 samples.

Results

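Hras and 9 genes whose RNA follows signalling through the MAPK cascade were described in mouse liver cancer cells of the LPC-HRas line, whose name carries Hras. The 10 genes were Hras, Dusp4, Dusp6, Spry2, Spry4, Etv4, Etv5, Areg, Hbegf and Fosl1, a list chosen with earlier results of these data known. All 10 were found among 55487 annotated rows of the deposited table. All 10 passed the filter on low counts, which left 13230 genes to test.

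The 2 groups were UBXN9-overexpressing cells (libraries UBXN9 1 and UBXN9 2) and control cells (libraries control 1 and control 2). Both are the same line, grown in DMEM with fetal bovine serum and antibiotics and left unstimulated. The labels give neither the Hras allele, its species and promoter, nor the vector that raised UBXN9, nor whether the cells are a clone or a pool. A count per gene adds up reads from every copy of a gene that the aligner placed there, so an introduced Hras copy and the resident gene cannot be told apart. Nothing in the labels says that the libraries of a group came from separate cultures, so p-values measure the spread between these libraries only.

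Hras is a small GTPase that, when bound to GTP, recruits RAF kinases to the membrane. RAF activates MEK and MEK activates ERK, which enters the nucleus and raises a set of target genes. Several of those targets turn the pathway down again. Dual-specificity phosphatases such as Dusp4 and Dusp6 remove phosphate from MAP kinases, and Sprouty proteins such as Spry2 and Spry4 restrain signalling upstream of ERK. Other targets carry the signal on, as the ETS factors Etv4 and Etv5, the AP-1 subunit Fosl1, and the secreted EGF receptor ligands Areg and Hbegf do. In liver these ligands are known for their roles in regeneration and tumour growth.

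Of the 10 genes, 1 fell and 0 rose with UBXN9 (edgeR quasi-likelihood test, Benjamini-Hochberg adjusted p under 0.05 over all genes tested). Over all genes tested, 2.38% fell, 5.06% rose and 7.44% changed in either direction. The gene that fell was Areg. At an unadjusted p under 0.05 there were 2 higher and 1 lower genes, where 12.3% of all genes tested were higher and 9.25% lower. DESeq2 called 0 higher and 1 lower, against 6.39% and 3.03% of all genes. So did limma-voom, against 4.97% and 2.42%. Over the 10, log2 fold changes had a median of -0.26, against -0.0056 over all genes tested, with 3 positive and 7 negative values. The libraries of the groups did not overlap for 9 of the 10 genes, compared with 50.6% of all tested genes. Of the 9, 3 had both UBXN9 libraries above both controls (25% of all tested genes) and 6 below (25.6%).

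Library totals ran from 21814969 to 26292686 estimated counts. Aspscr1, the mouse gene for UBXN9, stood at 392 and 380 CPM (the count relative to its library's total after TMM scaling) in UBXN9 1 and 2, against 92.1 and 115 CPM in control 1 and 2. That is a 3.72-fold rise, with an edgeR adjusted p of 0.00144. Of 14 liver lineage markers, Alb was listed at 0 in all 4 libraries, Hnf4a had 1 count in control 1, and Epcam and Cdh1 had at most 14 counts. Sox9 and Spp1, genes of biliary and progenitor cells, stood at 194 and 208 CPM (Sox9) and 2742 and 2991 CPM (Spp1) in UBXN9 1 and 2. In control 1 and 2 they stood at 168 and 174 CPM (Sox9) and 2483 and 2198 CPM (Spp1). Alb and Hnf4a, which define hepatocytes, were thus at or near 0.

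**Figure D1:**
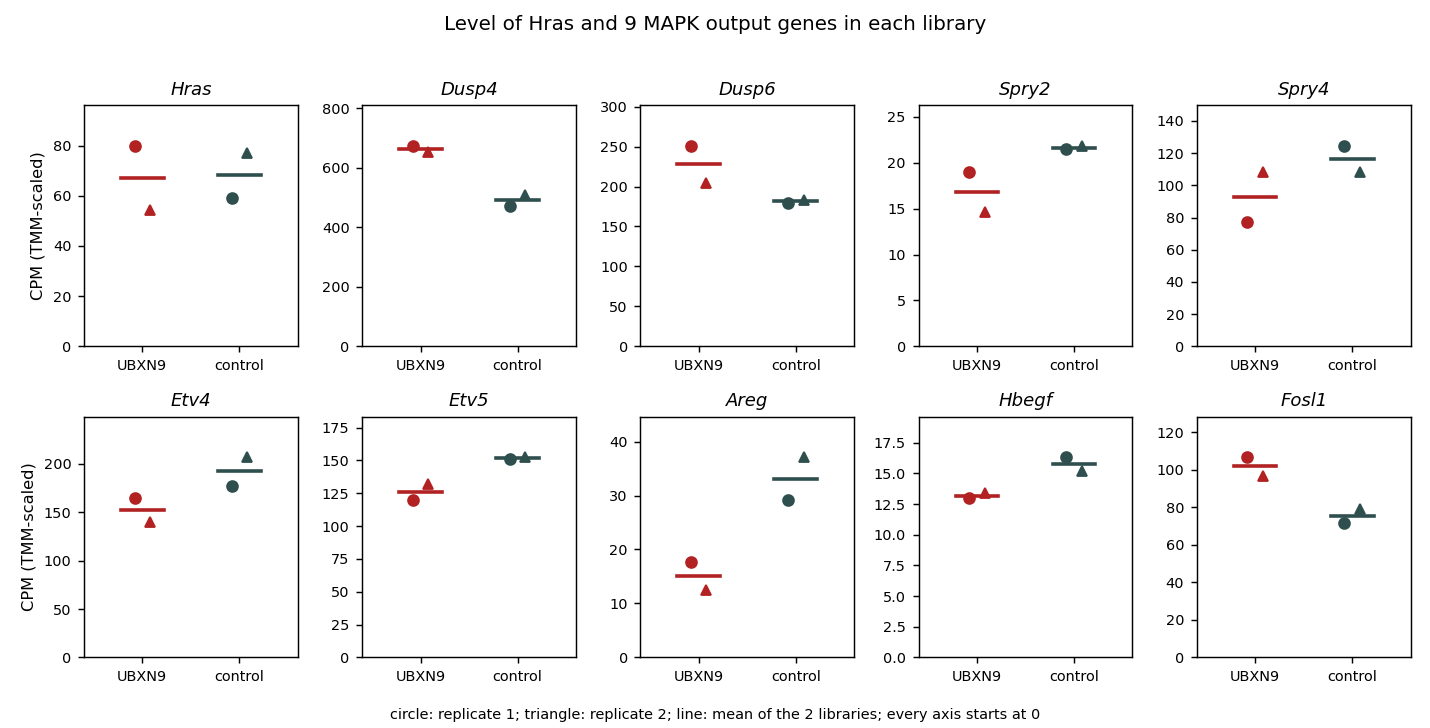
Level of each of the 10 genes (y axis, TMM-scaled CPM, from 0) in UBXN9 and control cells; points are libraries and lines the mean of 2. Areg lies between 12.6 and 17.7 CPM in UBXN9 cells and between 29.1 and 37.2 CPM in control cells, whereas the points of Hras overlap.

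Hras (ENSMUSG00000025499, chromosome 7, 141189105 to 141194005, minus strand, GRCm38) had 80.0 and 54.5 CPM in UBXN9 1 and 2, against 59.2 and 77.1 CPM in control 1 and 2. The groups overlapped, and the libraries within each group differed more than the group means did. The mean was 67.3 ± 18.0 CPM in UBXN9 cells and 68.1 ± 12.7 CPM in control cells (SD, n = 2 each). The log2 fold change was -0.019 with a 95% interval from -0.57 to 0.53 (edgeR adjusted p = 0.98). Its sign turned without UBXN9 2 (0.23, edgeR adjusted p = 0.41) and without control 2 (0.18, edgeR adjusted p = 0.962), so no direction can be given. That interval includes the 0.44 found for Dusp4 and Fosl1.

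The other RAS genes showed 0 calls as well. Of 6 RAS GTPases tested, Hras among them, 0 rose and 0 fell by edgeR, beside 5.06% and 2.38% of all genes tested. The counts were also 0 by DESeq2 (6.39% and 3.03% of all genes) and by limma-voom (4.97% and 2.42%). At an unadjusted p under 0.05 they were 0 as well (12.3% and 9.25%). Nras had 80.8 and 76.4 CPM in UBXN9 1 and 2, against 76.9 and 76.9 CPM in control 1 and 2. Rras, a relative with roles in adhesion, had 69.2 and 53.1 CPM in UBXN9 1 and 2, against 49.1 and 52.9 CPM in control 1 and 2. The median log2 fold change of the 6 was -0.075.

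The 3 genes with the pattern most like that of Hras over the 4 libraries, out of 9269 with at least 5 CPM in each, were Asl, a urea cycle enzyme, Rps14, a ribosomal protein gene, and Wrap73. Their root mean square differences from Hras in centred log2 CPM were 0.0124, 0.0187 and 0.0202. Asl had 163 and 114 CPM in UBXN9 1 and 2, against 122 and 160 CPM in control 1 and 2. This likeness rests on 4 libraries that also share a length trend, described below for the pathway genes.

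Areg, the gene for amphiregulin, an EGF receptor ligand shed from the cell surface, fell (ENSMUSG00000029378, chromosome 5, 91139599 to 91148432, plus strand). It had 356 and 333 counts in UBXN9 1 and 2, against 763 and 820 counts in control 1 and 2. Scaled, that was 17.7 and 12.6 CPM in UBXN9 1 and 2, against 29.1 and 37.2 CPM in control 1 and 2. Both UBXN9 libraries lay below both controls, and no library was near the other group. Its log2 fold change of -1.13 had an SE of 0.24 and a 95% interval from -1.70 to -0.57 (edgeR adjusted p = 0.0356), so that control cells had 2.19 times the level. In bulk RNA, fewer cells that express a gene and less of its RNA per cell cannot be told apart. Of all genes tested, 3.29% had a lower log2 fold change. The call was lost without control 2, where the log2 fold change was -0.95 (edgeR adjusted p = 0.224).

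The promoter windows below are shown because Areg was the gene that fell. Hras and Spry2 are the other genes with a motif in a window that was searched. Windows of 250 bases before to 50 bases after the start site, taken from RefSeq (GRCm38.p6), were searched for 5 of the 10 genes. No window of Dusp4, Spry4, Etv4, Hbegf or Fosl1 was searched, so whether these genes hold a motif is not known. Both strands were searched for the CRE letters TGACGTCA, the AP-1 letters TGANTCA and the ETS core letters CCGGAA. Capitals mark the matches.
Areg chr5:91139349-91139648 (+): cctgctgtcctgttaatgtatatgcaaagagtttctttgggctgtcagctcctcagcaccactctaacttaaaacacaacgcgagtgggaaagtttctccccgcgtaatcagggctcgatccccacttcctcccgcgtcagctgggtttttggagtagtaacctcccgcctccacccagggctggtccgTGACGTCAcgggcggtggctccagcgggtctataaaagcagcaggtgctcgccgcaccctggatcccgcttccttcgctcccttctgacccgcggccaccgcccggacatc
Hras chr7:141193955-141194254 (-): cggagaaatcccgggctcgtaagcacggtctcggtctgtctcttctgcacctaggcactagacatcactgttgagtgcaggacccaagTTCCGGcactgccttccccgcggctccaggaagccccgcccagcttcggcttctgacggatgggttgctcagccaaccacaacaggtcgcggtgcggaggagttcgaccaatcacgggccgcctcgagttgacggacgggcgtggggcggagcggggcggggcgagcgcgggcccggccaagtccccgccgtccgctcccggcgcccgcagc
Spry2 chr14:105896770-105897069 (-): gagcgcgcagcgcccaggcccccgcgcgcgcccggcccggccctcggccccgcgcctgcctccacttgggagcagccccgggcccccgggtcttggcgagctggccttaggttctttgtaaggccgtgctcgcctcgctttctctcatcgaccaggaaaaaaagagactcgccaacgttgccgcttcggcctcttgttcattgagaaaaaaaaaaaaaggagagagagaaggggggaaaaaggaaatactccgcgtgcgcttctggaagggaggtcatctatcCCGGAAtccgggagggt
The Areg window held the CRE, starting at base -61 from the start site, and 1.79% of the 32851 windows counted held it. The Hras window held the ETS letters from base -162 on the opposite strand, and the Spry2 window from base 34. Those letters occurred in 14.9% of windows. The AP-1 letters, found in 7.81% of windows, were in none of the 6 windows of these genes, and the windows of Dusp6 and Etv5 held no match.

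Hbegf, a second ligand of the EGF receptor (ENSMUSG00000024486, chromosome 18, 36504927 to 36515805, minus strand), did not pass. It had 13.0 and 13.4 CPM in UBXN9 1 and 2, against 16.4 and 15.2 CPM in control 1 and 2. Its libraries did not overlap between groups, but the log2 fold change was small, at -0.26 (SE 0.20, edgeR adjusted p = 0.523).

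The EGF family as a whole held changes in both directions. Of 7 ligand genes tested, 1 rose and 1 fell (5.06% and 2.38% of all genes tested). At an unadjusted p under 0.05, 3 were higher and 2 lower (12.3% and 9.25% of all genes tested). The ligand that rose was Nrg1, which encodes neuregulin, a ligand of ERBB3 and ERBB4. Nrg1 had 2.24 and 3.66 CPM in UBXN9 1 and 2, against 0.916 and 0.59 CPM in control 1 and 2. It rose by 1.96 on the log2 scale (SE 0.44, edgeR adjusted p = 0.0437). The call was lost without control 2 (0.226), by limma-voom (0.0511) and with library size as the only scaling (0.0889, all adjusted p).

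Ereg, the gene for epiregulin, lies 46.0 kb before Areg on the same strand of chromosome 5, from 91074622 to 91093646. It had 43.5 and 73.3 CPM in UBXN9 1 and 2, against 30.2 and 24.9 CPM in control 1 and 2. Its log2 fold change of 1.09 had an SE of 0.27 and missed the threshold (edgeR adjusted p = 0.0587). It passed by DESeq2 (adjusted p = 0.00219). It also passed without any one library other than control 2 (0.217 without it), and Gm19610 is annotated opposite it. The log2 fold changes of these neighbours thus had opposite signs. Counts of Ereg per count of Areg, which need no scaling between libraries, were 2.46 and 5.84 in UBXN9 1 and 2, against 1.04 and 0.668 in control 1 and 2. These ratios compare counts of genes of unequal length, 4128 annotated exon bases for Ereg and 1215 for Areg. Their size within a library can therefore not be read. Their change between libraries can also carry the length trend described below, whose part was not tested.

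Tgfa and Btc, named after their values were seen, were the other ligands with an unadjusted p under 0.05. Tgfa, the gene for transforming growth factor alpha, had 1.24 and 1.36 CPM in UBXN9 1 and 2, against 2.63 and 3.04 CPM in control 1 and 2 (edgeR adjusted p = 0.107). Btc, betacellulin, lies on chromosome 5 beyond Areg, from 91357261 to 91402994 on the minus strand. It had 3.33 and 2.68 CPM in UBXN9 1 and 2, against 1.34 and 0.681 CPM in control 1 and 2 (edgeR adjusted p = 0.0816). Epgn, the fourth gene of this cluster, had at most 3 counts in any library.

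Of 8 receptor and adaptor genes tested, 1 rose and 1 fell (5.06% and 2.38% of all genes tested). Egfr, the receptor that binds amphiregulin and the HB-EGF protein, had 75.5 and 92.1 CPM in UBXN9 1 and 2, against 40.7 and 33.7 CPM in control 1 and 2. It rose 2.25-fold (log2 1.17, SE 0.19, edgeR adjusted p = 0.0122), but did not pass once control 2 was left out (edgeR adjusted p = 0.0961). Egfros, annotated as a separate gene, overlaps Egfr. Erbb3, a receptor for neuregulin with little kinase activity of its own, had 0.747 and 1.47 CPM in UBXN9 1 and 2, against 6.64 and 7.49 CPM in control 1 and 2. It fell by 2.64 on the log2 scale (SE 0.38, edgeR adjusted p = 0.008). The receptors Erbb2 and Erbb4 differed from these. Erbb2 had 67.6 and 66.8 CPM in UBXN9 1 and 2, against 67.3 and 65.6 CPM in control 1 and 2, and Erbb4 was listed at 0 in all 4 libraries. The adaptor genes Grb2 (log2 fold change -0.0087, edgeR adjusted p = 0.985) and Shc1 (-0.16, 0.684) were not called.

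**Figure D2:**
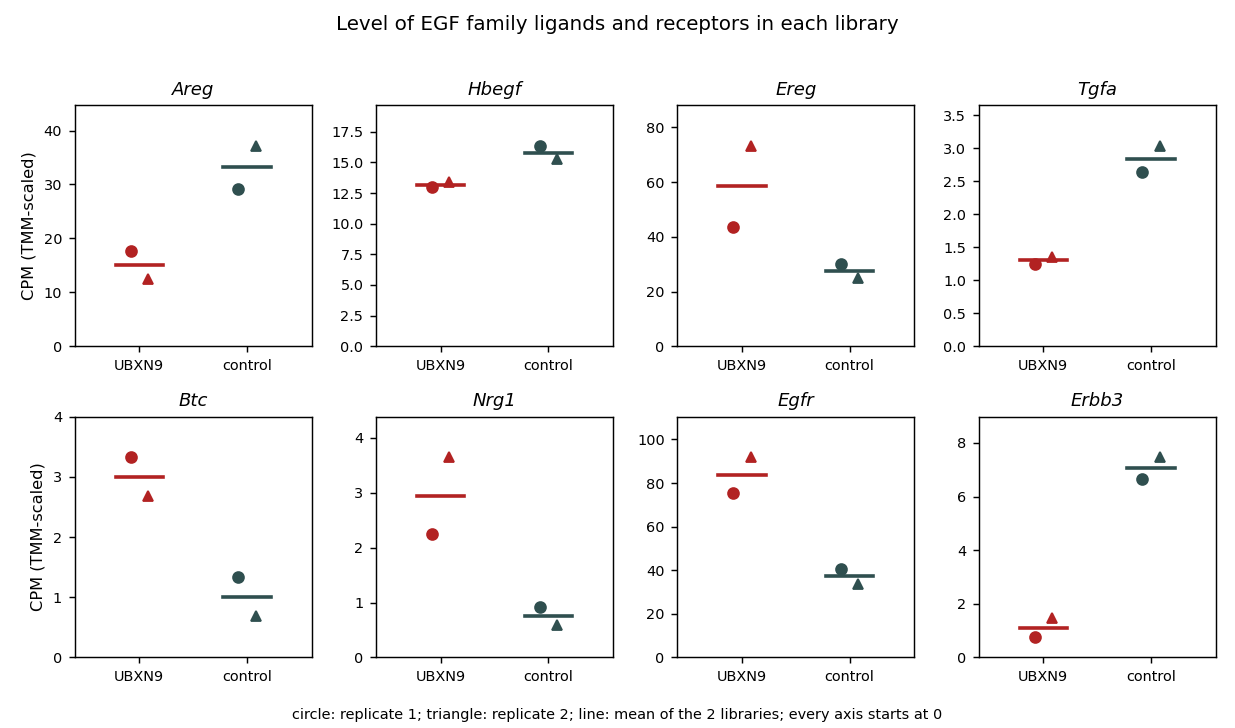
Level of 6 EGF family ligands and 2 receptors (y axis, TMM-scaled CPM, from 0) in UBXN9 and control cells; points are libraries and lines the mean of 2. Areg, Tgfa, Hbegf and Erbb3 lie lower, and Ereg, Btc, Nrg1 and Egfr higher, in both UBXN9 libraries than in both controls; Areg, Nrg1, Egfr and Erbb3 passed the test.

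The phosphatases Dusp4 and Dusp6 lay higher in UBXN9 cells but did not pass. Dusp4, a nuclear MAP kinase phosphatase (ENSMUSG00000031530, chromosome 8, 34807297 to 34819894, plus strand), had 675 and 652 CPM in UBXN9 1 and 2, against 472 and 509 CPM in control 1 and 2. Its log2 fold change was 0.44 with a 95% interval from 0.038 to 0.83 (unadjusted p = 0.036, edgeR adjusted p = 0.191). Dusp6, the cytoplasmic phosphatase specific for ERK (ENSMUSG00000019960, chromosome 10, 99263231 to 99267489, plus strand), had 251 and 205 CPM in UBXN9 1 and 2, against 180 and 183 CPM in control 1 and 2. The control libraries were close together and UBXN9 1 stood well above UBXN9 2. On the log2 scale the difference was 0.33 (SE 0.17, edgeR adjusted p = 0.319).

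Among all 11 MAP kinase phosphatases tested, 2 fell and 0 rose, beside 2.38% and 5.06% of all genes tested. At an unadjusted p under 0.05, 2 were lower and 1 higher (9.25% and 12.3% of all genes tested). DESeq2 called 1 lower and 0 higher (3.03% and 6.39% of all genes), and limma-voom 2 lower and 0 higher (2.42% and 4.97%). Dusp9, a cytoplasmic phosphatase of ERK, fell, with 26.4 and 24.5 CPM in UBXN9 1 and 2, against 57.3 and 64.4 CPM in control 1 and 2. It fell by 1.26 on the log2 scale (SE 0.17, edgeR adjusted p = 0.00597), and the call held without any single library. Dusp14 fell as well, with 3.04 and 3.17 CPM in UBXN9 1 and 2, against 6.87 and 6.71 CPM in control 1 and 2 (log2 fold change -1.13, edgeR adjusted p = 0.0455). That call was lost without control 1 (edgeR adjusted p = 0.245), without control 2 (0.272), with library size as the only scaling (0.0598), with the replicate number as a block (0.11) and by DESeq2 (0.0614). Over the list, 7 log2 fold changes were positive and 4 negative, with a median of 0.038.

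Spry2 and Spry4 lay lower in UBXN9 cells without passing, and Spry1 lay higher. Spry2 (ENSMUSG00000022114, chromosome 14, 105891947 to 105896819, minus strand) had 19.0 and 14.7 CPM in UBXN9 1 and 2, against 21.4 and 21.9 CPM in control 1 and 2. The difference on the log2 scale was -0.37 (SE 0.21, edgeR adjusted p = 0.375). Spry4 (ENSMUSG00000024427, chromosome 18, 38586247 to 38601415, minus strand) had 77.1 and 108.0 CPM in UBXN9 1 and 2, against 125 and 109 CPM in control 1 and 2. UBXN9 2 was nearly level with control 2, and UBXN9 1 was the low library. On the log2 scale the difference was -0.33 (SE 0.20, edgeR adjusted p = 0.412). It was -0.60 without UBXN9 2, where it passed (edgeR adjusted p = 0.0137), and -0.11 without UBXN9 1 (edgeR adjusted p = 0.769). Of 7 Sprouty and Spred genes tested, 0 rose and 0 fell by edgeR, beside 5.06% and 2.38% of all genes tested. The counts were also 0 by DESeq2 (6.39% and 3.03% of all genes) and by limma-voom (4.97% and 2.42%). At an unadjusted p under 0.05 they were 0 as well (12.3% and 9.25%). Without UBXN9 2, 3 fell, in a fit that called 9.78% of all genes lower. Spry1, a Sprouty gene named after its values were seen, had 22.6 and 22.3 CPM in UBXN9 1 and 2, against 17.3 and 18.5 CPM in control 1 and 2 (edgeR adjusted p = 0.362). Spred1, another inhibitor of RAS signalling, had 108.0 and 140 CPM in UBXN9 1 and 2, against 119 and 81.7 CPM in control 1 and 2.

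The ETS factors Etv4 and Etv5 were also lower without passing. Etv4 (ENSMUSG00000017724, chromosome 11, 101769742 to 101785371, minus strand) had 165 and 140 CPM in UBXN9 1 and 2, against 178 and 207 CPM in control 1 and 2. The difference on the log2 scale was -0.34 (SE 0.17, edgeR adjusted p = 0.322). Etv5 (ENSMUSG00000013089, chromosome 16, 22381309 to 22439719, minus strand) had 120 and 132 CPM in UBXN9 1 and 2, against 151 and 153 CPM in control 1 and 2. The difference on the log2 scale was -0.27 (SE 0.15, edgeR adjusted p = 0.373). Both genes had UBXN9 libraries below both controls, with 95% intervals that include 0, from -0.74 to 0.069 for Etv4 and from -0.62 to 0.089 for Etv5. Of 9 ETS factors tested, 0 rose and 0 fell by edgeR (5.06% and 2.38% of all genes tested) and by limma-voom (4.97% and 2.42%). DESeq2 called 1 higher (6.39% of all genes tested), and 1 was higher at an unadjusted p under 0.05 (12.3%). Without UBXN9 2 more of the list passed, as did more of all genes. The gene at an unadjusted p under 0.05 was Ets2, which had 162 and 171 CPM in UBXN9 1 and 2, against 110.2 and 109.6 CPM in control 1 and 2 (log2 fold change 0.60, edgeR adjusted p = 0.0593).

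Fosl1, which encodes the AP-1 subunit FRA1 (ENSMUSG00000024912, chromosome 19, 5447547 to 5455946, plus strand), had 107.0 and 96.9 CPM in UBXN9 1 and 2, against 71.5 and 78.9 CPM in control 1 and 2. The groups did not overlap. The log2 fold change was 0.44 with a 95% interval from 0.071 to 0.81, and it missed the threshold (unadjusted p = 0.0258, edgeR adjusted p = 0.158). It passed without UBXN9 2 (0.51, edgeR adjusted p = 0.0312). Of the 2033 annotated exon bases of Fosl1, 1163 are shared with Ccdc85b on the opposite strand. How strand and shared bases were handled in counting is not stated, and reads of the 2 genes cannot be told apart there. Ccdc85b itself had 45.2 and 35.9 CPM in UBXN9 1 and 2, against 54.1 and 60.6 CPM in control 1 and 2, the opposite order to Fosl1. Gm27369 and Gm27804 are annotated opposite Spry4, and no annotated gene overlaps the other 8.

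Among 7 AP-1 subunit genes tested, 1 rose and 0 fell by edgeR (5.06% and 2.38% of all genes tested) and by limma-voom (4.97% and 2.42%). DESeq2 called 2 higher and 0 lower, against 6.39% and 3.03% of all genes. At an unadjusted p under 0.05, 3 were higher and 1 lower (12.3% and 9.25% of all genes). Junb rose, with 795 and 661 CPM in UBXN9 1 and 2, against 356 and 439 CPM in control 1 and 2 (log2 fold change 0.87, edgeR adjusted p = 0.0448). That call was lost without control 1 (edgeR adjusted p = 0.435) and without control 2 (0.144), and with the replicate number as a block (0.112), and Prdx2 overlaps Junb in the annotation. Jun had 239.9 and 236 CPM in UBXN9 1 and 2, against 151 and 156 CPM in control 1 and 2 (edgeR adjusted p = 0.0504). Jund had 178 and 154 CPM in UBXN9 1 and 2, against 133 and 164 CPM in control 1 and 2, with overlapping groups.

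**Figure D3:**
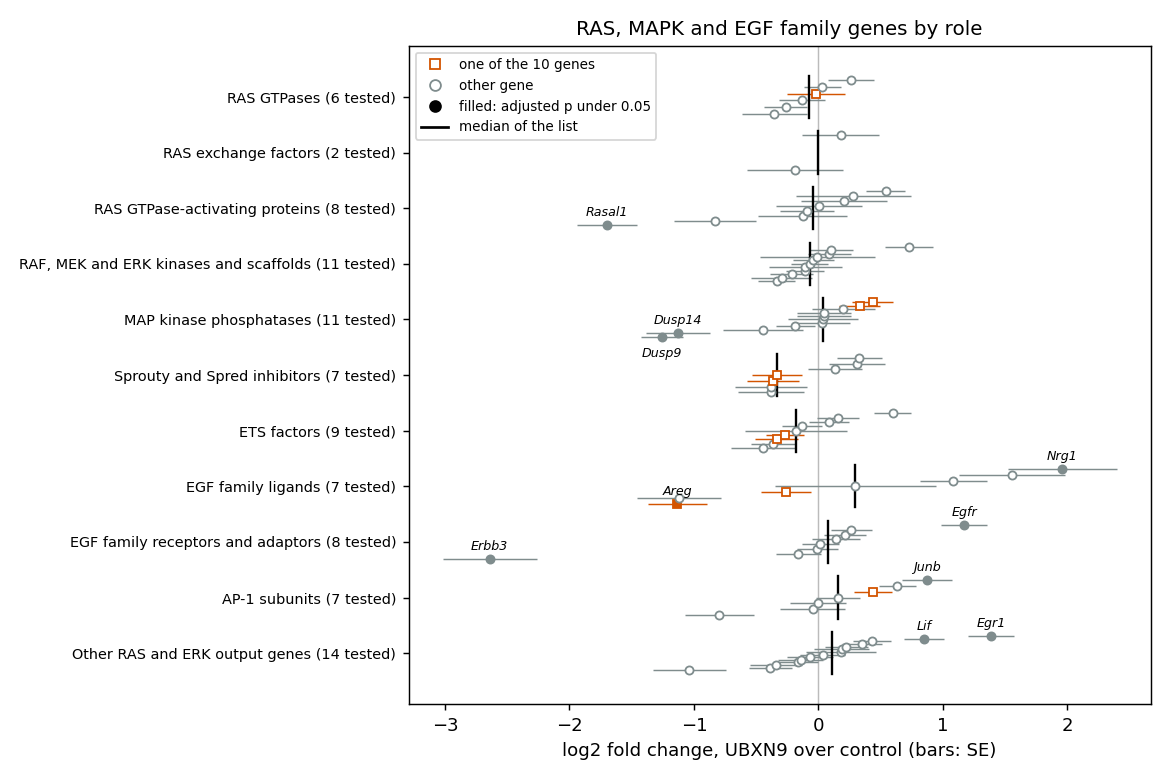
Log2 fold change of UBXN9 over control cells (x axis, bars are SE) for the genes tested in 11 lists of pathway genes grouped by role (y axis), with the 10 genes as squares. Most points lie within 0.5 of 0; Erbb3, Rasal1, Dusp9, Dusp14 and Areg are the filled points on the negative side and Junb, Lif, Egfr, Egr1 and Nrg1 those on the positive side.

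Upstream of ERK, 11 kinase and scaffold genes were tested. By edgeR 0 rose and 0 fell (5.06% and 2.38% of all genes tested), and so by limma-voom (4.97% and 2.42%). DESeq2 called 1 higher and 0 lower (6.39% and 3.03% of all genes tested), and 1 was higher at an unadjusted p under 0.05 (12.3%). Without UBXN9 2 more of the list passed, as did more of all genes. The gene at an unadjusted p under 0.05 was Map2k1, which encodes the kinase MEK1 and was named after its values were seen. Map2k1 had 175 and 127 CPM in UBXN9 1 and 2, against 89.4 and 92.7 CPM in control 1 and 2 (edgeR adjusted p = 0.0713). Mapk3, the gene for ERK1, had 259 and 221 CPM in UBXN9 1 and 2, against 257 and 300.1 CPM in control 1 and 2 (edgeR adjusted p = 0.548). Ksr2, a scaffold of the cascade, was too low to test, with 0 counts in both UBXN9 libraries against 10 and 11 counts in control 1 and 2. With the UBXN9 sum set to a floor of 3 counts, the control level of Ksr2 was 6.76 times that floor. That value takes the control counts as exact and leaves out the spread between libraries.

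Among regulators of RAS itself, 2 of 8 exchange factor genes were deep enough to test, Sos1 and Sos2, and the others had at most 7 counts. Sos1 had 17.4 and 30.3 CPM in UBXN9 1 and 2, against 25.0 and 17.2 CPM in control 1 and 2, and neither gene passed (edgeR adjusted p = 0.813 for Sos1 and 0.853 for Sos2). Of 8 GTPase-activating protein genes, which switch RAS off, 1 fell and 0 rose by edgeR (2.38% and 5.06% of all genes tested). The counts were the same by limma-voom (2.42% and 4.97%). At an unadjusted p under 0.05, 2 were lower and 1 higher (9.25% and 12.3%). Rasal1 fell, with 5.28 and 4.22 CPM in UBXN9 1 and 2, against 14.3 and 16.4 CPM in control 1 and 2. It fell by 1.70 on the log2 scale (SE 0.24, edgeR adjusted p = 0.00807), and the call held without any single library. Rasa3 had 261 and 247 CPM in UBXN9 1 and 2, against 166 and 183 CPM in control 1 and 2 (edgeR adjusted p = 0.0926). In this list DESeq2 called 1 higher and 1 lower gene, against 6.39% and 3.03% of all genes.

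The remaining output genes gave 2 higher and 0 lower of 14 tested (5.06% and 2.38% of all genes tested). At an unadjusted p under 0.05, 3 were higher and 1 lower (12.3% and 9.25%). DESeq2 called 2 higher and 0 lower (6.39% and 3.03% of all genes), as did limma-voom (4.97% and 2.42%). Egr1, an immediate early transcription factor, had 294 and 382 CPM in UBXN9 1 and 2, against 130 and 128 CPM in control 1 and 2 (log2 fold change 1.39, edgeR adjusted p = 0.00597). Lif, a cytokine of the interleukin 6 family, rose, with 281 and 259 CPM in UBXN9 1 and 2, against 140 and 159 CPM in control 1 and 2 (log2 fold change 0.85, edgeR adjusted p = 0.023). The call of Lif was lost without control 1 (edgeR adjusted p = 0.297), without control 2 (0.144) and with the replicate number as a block (0.0579). Ccnd1, the cyclin that ERK signalling is known to raise, had 673 and 572 CPM in UBXN9 1 and 2, against 650.1 and 723 CPM in control 1 and 2 (edgeR adjusted p = 0.731). Ier3 and Emp1 were among the most abundant of this list and did not pass either (edgeR adjusted p = 0.699 and 0.893).

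Over all 11 lists, 90 of 101 genes were tested, 5 rose and 5 fell, which is 11.1% called against 7.44% of all genes tested. The median log2 fold change was -0.0068, with 44 positive and 46 negative values. Without the 10 genes, 5 of 80 rose and 4 fell. The counts depended on which library was left out. Without UBXN9 1 the lists gave 11 higher and 7 lower, in a fit that called 11.6% of all genes higher and 6.84% lower. Without UBXN9 2 they gave 13 higher and 17 lower, beside 10.9% and 9.78% of all genes. Without control 1 they gave 4 and 4, beside 3.71% and 1.43%, and without control 2 they gave 1 higher and 3 lower, beside 2.69% and 0.974%. The count over all genes thus moved with the library left out as well. The 10 genes gave 1 higher and 2 lower without UBXN9 2, 0 and 0 without control 2, and 0 higher and 1 lower without UBXN9 1 or without control 1.

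Per length, Dusp4 had the highest level of the 10 genes in both groups, with 242 ± 5.93 CPM per kb of annotated exons in UBXN9 cells and 179 ± 9.49 CPM per kb in control cells (SD, n = 2 each). Hbegf had the lowest, with 2.73 ± 0.0574 CPM per kb in UBXN9 cells and 3.27 ± 0.165 CPM per kb in control cells. Hras stood in the lower part of the order, with 18.0 ± 4.83 CPM per kb in UBXN9 cells and 18.3 ± 3.39 CPM per kb in control cells. In UBXN9 cells the order from high to low was Dusp4, Dusp6, Fosl1, Etv4, Etv5, Spry4, Hras, Areg, Spry2 and Hbegf. Of neighbours in that order, the libraries overlapped for Fosl1 and Etv4 and for Spry4 and Hras. In control cells it was Dusp4, Etv4, Dusp6, Etv5, Fosl1, Areg, Spry4, Hras, Spry2 and Hbegf, with overlap for Etv4 and Dusp6, for Etv5 and Fosl1 and for Areg and Spry4. Areg thus lay below Hras in UBXN9 cells and above it in control cells. Exon bases are summed over all annotated transcripts, which lowers the level of a gene that uses a short one.

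Differences between libraries of the same group were related to gene length. Over the 90 pathway genes the difference between UBXN9 1 and UBXN9 2 had a Spearman correlation of -0.649 with annotated exon bases, and the difference between control 1 and control 2 had 0.598. The difference between groups had -0.0544. These are descriptions across genes that share their libraries. Hras had the widest difference of the 10 genes in both groups, although 6 of the other 9 have fewer exon bases. It was 0.55 higher on the log2 scale in UBXN9 1 than in UBXN9 2 and differed by -0.38 between control 1 and control 2. The same differences were 0.48 and -0.35 for Areg, and -0.48 and 0.20 for Spry4. The pattern opposes the replicate numbers, since UBXN9 1 and control 2 were the libraries with relatively more reads on short genes. Its part in the group differences of single genes was not tested.

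**Figure D4:**
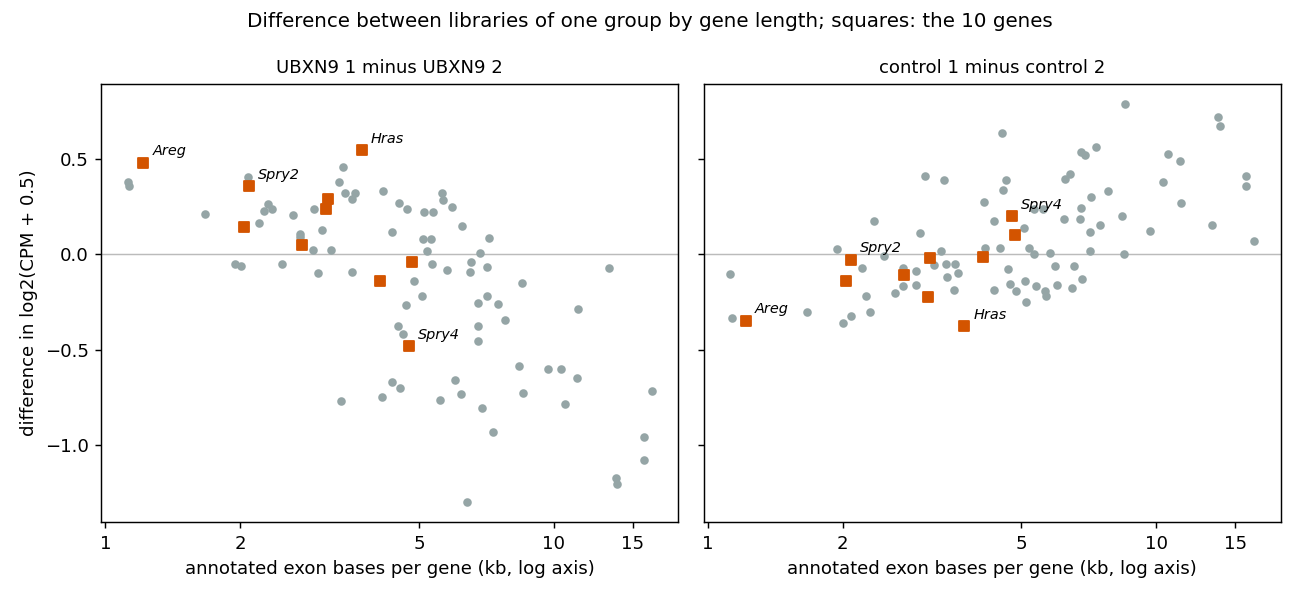
Difference in log2(CPM + 0.5) between the 2 libraries of a group (y axis) against annotated exon bases per gene (x axis, kb, log axis) for 90 pathway genes, with the 10 genes as squares. Points tend downwards with length in the left panel (UBXN9 1 minus UBXN9 2, Spearman -0.649) and upwards in the right panel (control 1 minus control 2, 0.598), with Hras at 0.55 on the left and -0.38 on the right.

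Markers of other cell types moved with the groups in part. The summed level of 14 such markers was 361 and 428 CPM in UBXN9 1 and 2, against 227 and 208 CPM in control 1 and 2. Of 7 tested, 2 rose, the matrix and contractile genes Col1a1 and Acta2, and 0 fell (5.06% and 2.38% of all genes tested). Both UBXN9 libraries lay above both controls for 5 of the 7 (25% of all tested genes) and below them for 0 (25.6%). Col1a1 had 109 and 144 CPM in UBXN9 1 and 2, against 30.3 and 24.9 CPM in control 1 and 2. Acta2 had 46.6 and 38.9 CPM in UBXN9 1 and 2, against 17.7 and 17.8 CPM in control 1 and 2. Pdgfrb, a marker of fibroblasts and stellate cells, had the highest level of the 14 in every library. It had 196 and 240 CPM in UBXN9 1 and 2, against 174 and 162 CPM in control 1 and 2 (edgeR adjusted p = 0.26). The T cell marker Cd3e was listed at 0 in all 4 libraries, the leukocyte marker Ptprc had at most 3 counts, the myeloid markers Adgre1 and Itgam had at most 4 and 6 counts, each highest in UBXN9 1, and the stellate cell marker Lrat had 1 count in UBXN9 2. The macrophage marker Csf1r had 56 and 8 counts in UBXN9 1 and 2, against 12 and 14 counts in control 1 and 2, so UBXN9 1 was the high library (edgeR adjusted p = 0.434). Among liver lineage markers 2 of 7 tested fell, the keratin genes Krt18 and Krt19, and 0 rose (2.38% and 5.06% of all genes tested). The part of these shifts in the changes of Areg, Egfr and Erbb3 was not tested.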

How the data were processed

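RNA was sequenced from 2 UBXN9-overexpressing and 2 control libraries, made with the TruSeq RNA kit per the labels' protocols. The deposited table holds estimated counts per gene that are not scaled between libraries. Tools and build named in the submitters' processing notes are GRCm38.p6, HISAT2 2.1.0 and HTSeq, while settings, annotation and strand handling are not given in the sources used here. Of 55728 rows, 241 outside the annotation (at most 0.535% of counts) were left out, and between 10.1% and 12.1% of values per library were fractions and were rounded.

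Symbols, positions and exon lengths came from GENCODE M21 (55227 identifiers matched). Tests ran in edgeR 4.0.16 under R 4.3.3 (TMM factors, filterByExpr with a minimum count of 10, quasi-likelihood F test, two-sided, Benjamini-Hochberg adjusted p under 0.05). SEs are the log2 fold change over the root of F, and 95% intervals use the t distribution of that fit. The procedure was tested on simulated counts drawn independently for each gene, which do not hold the length trend between libraries. Alternatives were RLE factors, library size alone, other filters (no filter, and 5 CPM in 2 libraries), DESeq2 1.42.0, limma-voom 3.58.1 and a replicate block. A block with crossed replicate numbers was added after seeing the data. Each library was also left out, which lends the single library left in a group the spread of the other group. An exact permutation test of 2 against 2 cannot give a two-sided p below 0.333. Figures used matplotlib 3.10.9.

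The 10 genes and the lists were chosen with earlier results of these data known. Genes named were the 10, Aspscr1, every called gene and some of the 3 most abundant others of each list, and the 3 nearest to Hras; Map2k1, Btc, Tgfa, Ets2, Jun and the low or unchanged genes beside them were named after their values were seen. Some genes of the lists are not reported here.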

Additional observations from a re-analysis of the deposited data

How the results depend on the processing

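The fold changes of the 10 genes kept their direction under every alternative, except that of Hras, which ranged from -0.32 (without UBXN9 1) to 0.23 (without UBXN9 2) when 1 library was left out, and was 0.18 without control 2. Over the 10 genes and all 12 alternatives, 111 of 120 values kept their direction and their side of the threshold, 6 newly passed, 1 (Areg without control 2) no longer passed and 2 reversed. These alternatives include the block with crossed numbers, chosen after seeing the data, under which Dusp4, Spry4, Etv4 and Fosl1 newly passed. The median over all genes moved to -0.094 with library size as the only scaling.

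Without a filter on low counts 1144 genes were higher and 683 lower of 22729 tested, against 669 and 315 of 13230. The pathway lists then gave 10 higher and 9 lower of 100 tested, against 5 and 5 of 90. DESeq2 gave 10 higher and 4 lower of 90 pathway genes, beside 6.39% and 3.03% of all genes tested. The filter of 5 CPM left the low ligands Nrg1, Tgfa and Btc untested.

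Leaving out a library gave between 373 and 1611 genes higher and between 135 and 1318 lower. The 10 genes then gave between 0 and 1 higher and between 0 and 2 lower, and the pathway lists between 1 and 13 higher and between 3 and 17 lower. The libraries of the UBXN9 group differed more from each other (median 0.292 on the log2 scale) than the controls did (0.186), and the fits without a UBXN9 library take their spread from the controls.

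Replicate numbers are shared by both groups, but same-numbered libraries deviated in opposite directions (correlation -0.482). With 2 libraries per group, crossed numbers give 0.482 by construction, so this cannot show whether equal numbers mark a shared preparation. With a replicate block 640 genes were higher and 292 lower, and the 10 genes still gave 0 higher and 1 lower. A block with crossed numbers, chosen after seeing the data, gave 1776 higher and 1361 lower, 2 higher and 3 lower of the 10 genes, and 15 higher and 14 lower pathway genes.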
